A study of Mus musculus with 6 samples.

Results

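Aminoacyl-tRNA synthetases are the enzymes that join each amino acid to its tRNA, and cells keep separate sets of them for protein synthesis in the cytosol and in mitochondria. The 36 genes described here are the 20 cytosolic and the 16 mitochondrial synthetase genes of a fixed list, the mitochondrial ones carrying names that end in ars2. They were found by name in the deposited table, which holds 15599 genes with a read in at least 1 library. The rule is a list of names and uses no threshold on a measured value, although the list was drawn up with earlier results of these data known. All 36 were present, with 13 to 2529 reads per gene and library, and all 36 passed the filter on low values described with the processing.

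The mitochondrial enzymes are encoded in the nucleus and imported, while Gars and Kars, the glycyl and lysyl enzymes, supply both compartments. Several cytosolic enzymes sit together in the multi-synthetase complex, which is held by scaffold proteins such as Aimp1, Aimp2 and Eef1e1. Uncharged tRNA activates the kinase Gcn2, which raises translation of the transcription factor Atf4, and a number of cytosolic synthetase genes are known Atf4 targets. Haematopoietic stem cells are known for a low rate of protein synthesis.

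The cells sequenced were LT-HSC, the long-term repopulating stem cells of blood, from mice on the C57BL/6 background. There were 3 libraries of Itpkb-/- mice, spelled IPTKB-/- in the labels and called mutant here, which carry the ENU-induced Ms T-less allele (ENU is a chemical mutagen), and 3 of WT litter mate controls. Itpkb encodes a kinase that phosphorylates inositol trisphosphate. Each library was a pool of bone marrow from 4 age-matched mice, from which at least 10000 LSK CD34-CD150+CD48-Flk2- cells were sorted. The mice were homozygous for a germline allele, so the other cells of the marrow in which the LT-HSC lived carried the allele as well, and no age is given in the sources used here. Itpkb itself was at 10.2, 13.99 and 18.2 normalized CPM (read counts per gene, scaled by the authors for library size) in the mutant and 22.1, 23.6 and 25.1 in the control libraries. The log2 difference of -0.73 missed the limit (limma, adjusted p = 0.172) and passed with the replicate block, the fit that compares same-numbered libraries (limma, 0.0541). Every mutant library lay below every control. A point-mutagen allele need not lower its transcript.

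The libraries held 4024203 to 7470329 reads. Of 11 LT-HSC marker genes, all 11 had at least 3 reads in every library, with a summed level of 1826 to 2484 normalized CPM in mutant and 3042 to 3671 in control libraries. The sort selects on proteins, and transcripts of the 3 excluded markers Cd34, Cd48 and Flt3 were present in all 6 libraries. The 6 T cell markers summed to 8.82 to 11.9 normalized CPM, nearly all from Cd4 and Lck, with Cd3g and Cd8a at 0 in every library. The 7 B cell markers summed to 30.5 to 38.8, of which Cd79b made up 28.2 to 34.8, and Pax5 was at 0 in every library. Granulocyte markers were high and uneven: 16 genes summed to 7336, 19449 and 1243 normalized CPM in mutant libraries 1, 2 and 3 and to 4484, 3257 and 1145 in control libraries 1, 2 and 3. Mutant library 2 therefore stood apart, led by Mpo at 8728 normalized CPM. The 13 erythroid markers summed to 1319, 1224 and 689 in mutant and 1705, 1116 and 1140 in control libraries. Car2 made up 512 to 915 of these. Hba-a1 ran from 3.28 in mutant library 3 to 92.8 in control library 1. The 6 macrophage markers summed to 11.7 to 23.7. In these sorted populations a change in which cells are present and a change in RNA per cell cannot be told apart.

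Cytosolic synthetase transcripts were measured at higher mean levels in mutant LT-HSC for all 20 genes, but 1 gene, Aars, rose by the test. Among mitochondrial synthetases 12 of 16 had a positive log2 difference and 1, Iars2, rose. None of the 36 fell, and 1 (Lars2) had an unadjusted p of at most 0.05 in that direction. The 2 called genes of 36 are to be read against the 5.5% of all 12008 tested genes that were called (limma, adjusted p of at most 0.15). Both calls were increases, and 2.27% of all tested genes rose while 3.24% fell. Of the 20 cytosolic genes 8 had a positive difference with an unadjusted p of at most 0.05 (7.13% of all tested genes), 2 passed by edgeR (2.45% of genes higher), 5 by DESeq2 (3.26%) and 10 with the replicate block (9.15%). Of the 16 mitochondrial genes 1 passed by each of these 3 fits. At an adjusted p of at most 0.05 Aars alone passed (0.616% of genes were higher by that limit), and under the combined limits of the series design text, which add a fold and a level, Aars and Iars2 both passed (1.54% of genes higher). For direction, 50.2% of all tested genes had a positive log2 difference. The count of 20 of 20 did not hold in every fit without libraries: Farsb, Hars, Wars and Yars each turned slightly negative in 2 of them. The median log2 difference was 0.32 over the cytosolic and 0.13 over the mitochondrial genes, beside 0.00 over all genes tested and 0.02 over the 8410 tested genes with a mean level in the range of the cytosolic members. Differences in this text are Itpkb-/- minus wild type on the scale of log2(normalized CPM + 1).

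Aars, the alanyl-tRNA synthetase (chromosome 8, 111033144 to 111057664, plus strand, build mm10), was at 79.3, 101.6 and 101.4 normalized CPM in mutant libraries 1, 2 and 3. In control libraries 1, 2 and 3 it was at 45.3, 55.7 and 61.2. All 3 mutant libraries lay above all 3 control libraries, as in 10% of all tested genes. Mean levels of 94.1 ± 12.8 and 54.1 ± 8.12 (SD, n = 3 each) gave a log2 difference of 0.79 (SE 0.17, 95% confidence interval 0.42 to 1.16, limma adjusted p = 0.0454). The call was kept by edgeR (adjusted p = 0.0348) and lost without control replicate 3 (limma, adjusted p = 0.163), in a range of 0.00143 to 0.274 over all alternatives. The annotated exons of Aars, joined over its transcripts, share 1326 bases with its neighbour Exosc6, an exosome subunit gene, on the same strand. Exosc6 was at 29.0, 29.4 and 34.1 normalized CPM in mutant and 31.8, 24.2 and 29.4 in control libraries, with overlapping groups.

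Tars, the threonyl-tRNA synthetase, and Gars, the glycyl-tRNA synthetase, had the next smallest p-values of the cytosolic set and lay just outside the limit. Tars was at 67.3, 84.4 and 83.2 normalized CPM in mutant libraries and 49.0, 56.0 and 60.3 in control libraries, with no overlap between the groups. Its log2 difference was 0.50 (SE 0.16, limma adjusted p = 0.155), and it passed with edgeR (adjusted p = 0.145), with DESeq2 (0.113) and with the replicate block (limma, 0.0279). Gars was at 117, 148 and 144 normalized CPM against 76.6, 113 and 96.1, again without overlap. Its log2 difference was 0.52 (SE 0.17, limma adjusted p = 0.159), and it passed with DESeq2 (adjusted p = 0.100) and with the block (limma, 0.0101).

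**Figure D1:**
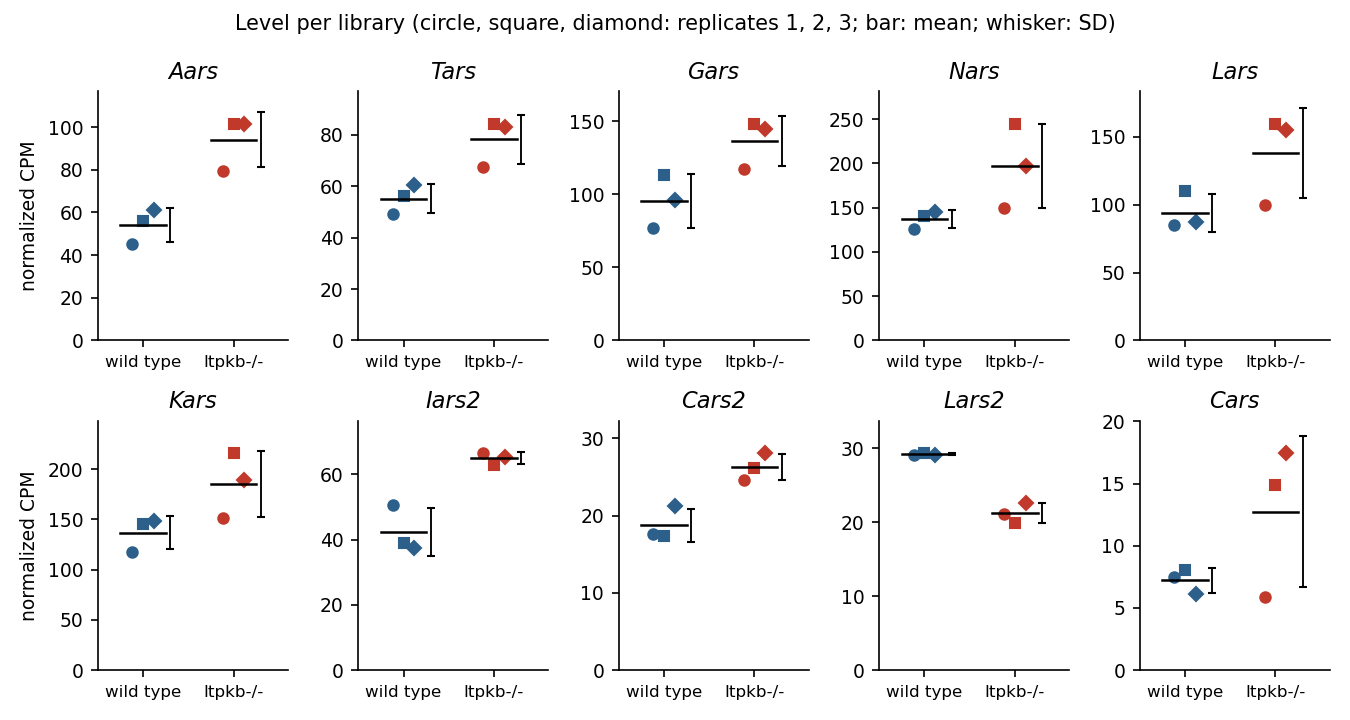
Level of 10 synthetase genes in normalized CPM (y axis, from 0) in 3 wild-type (blue) and 3 Itpkb-/- (red) libraries, with replicates 1, 2 and 3 as circles, squares and diamonds, the mean as a bar and the SD as a whisker. For Aars all red points lie above all blue points (79.3 or more against 61.2 or less), for Lars2 all lie below, and in Lars and Cars the groups overlap.

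The promoter windows of these genes were searched for the C/EBP-ATF response element, the kind of site through which Atf4 is known to act, spelled TGATGNAA, on both strands of the 250 bases before and 50 after each start site (RefSeq, build GRCm38.p6). Windows were at hand for 12 cytosolic and 14 mitochondrial genes. The other members had no window and were not searched, so nothing is known here of their sites. The letters were found in 5 of the 12 cytosolic windows, those of Aars, Gars, Iars, Tars and Yars, and in 0 of the 14 mitochondrial windows. Of all 27025 genes with a window, 4.51% held them, and of the 9021 tested genes with a window 2.7%. The stretches around all of these matches are shown. They run 5′ to 3′ on the gene's strand with the match in capitals, which runs from TT to CATCA where it lies on the opposite strand.
Aars, chr8:111033704-111033763, plus strand, match starting 112 bases before the start site: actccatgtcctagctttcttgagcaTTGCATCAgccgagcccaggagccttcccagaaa
Aars, chr8:111033840-111033869, plus strand, match starting at base 10 of the transcript: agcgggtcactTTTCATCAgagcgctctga
Tars, chr15:11399659-11399699, minus strand, match starting 15 bases before the start site: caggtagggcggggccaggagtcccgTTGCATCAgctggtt
Gars, chr6:55037945-55038000, plus strand, match starting 30 bases before the start site: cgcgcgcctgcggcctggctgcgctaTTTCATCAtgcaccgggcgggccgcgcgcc
Iars, chr13:49682126-49682155, plus strand, match starting at base 8 of the transcript: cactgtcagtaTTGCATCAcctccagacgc
Yars, chr4:129189895-129189924, plus strand, match starting at base 4 of the transcript: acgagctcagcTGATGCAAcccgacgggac
Aars was the only one of these genes with a pair of matches in its window. The RefSeq start site used for Aars lies downstream of the start of its GENCODE span, 111033144. Both Aars matches therefore lie inside the span given above for that gene. The median log2 difference was 0.50 over the 5 genes with a match and 0.34 over the 7 searched cytosolic genes without one. Iars, the isoleucyl enzyme, and Yars, the tyrosyl enzyme, hold the letters as well and had log2 differences of 0.24 and 0.14, neither of which passed (limma, adjusted p = 0.432 and 0.817). A match is a description of the sequence and does not show that a factor binds there. Whether the matches bear on the differences was not tested. A second motif, the E-box CACGTG to which Myc is known to bind, lay in 4 of the 12 cytosolic windows (Aars, Farsb, Iars and Tars) and in 1 of the 14 mitochondrial windows (Ears2), beside 8.09% of all genes with a window and 12% of the tested genes with one. The cytosolic median log2 difference was 0.37 with this motif and 0.36 without it.

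The other free cytosolic enzymes, those outside the multi-synthetase complex, were Cars, Farsa, Farsb, Hars, Nars, Sars, Vars, Wars and Yars. Nars, which charges asparagine tRNA, was at 150, 245 and 197 normalized CPM in mutant and 126, 140 and 145 in control libraries, with no overlap. Its log2 difference was 0.50 (limma, adjusted p = 0.189), passing with the block (limma, 0.0168) and with DESeq2 (0.0916). Sars, the seryl enzyme, was at 92.9 ± 16.7 against 70.8 ± 9.38 normalized CPM (SD, n = 3 each), and Farsa, the alpha subunit of the phenylalanyl enzyme, at 73.0 ± 17.2 against 56.6 ± 5.46. Both had overlapping groups and passed with the block alone among the whole-sample fits (limma, adjusted p = 0.0775 and 0.142). Farsb, the beta subunit of that enzyme, was nearly level at 120.6 ± 9.38 and 116.6 ± 11.7 normalized CPM, a log2 difference of 0.05 with a 95% confidence interval of -0.25 to 0.35.

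Wars and Hars, the tryptophanyl and histidyl enzymes, were as close, with log2 differences of 0.06 (interval -0.29 to 0.42) and 0.10 (-0.34 to 0.54). Wild-type library 1 had the highest Wars of its group, at 94.5 normalized CPM, where most cytosolic members were lowest in that library. Vars, the valyl enzyme, was at 152.7 ± 23.9 against 127.8 ± 12.4 normalized CPM, and Yars at 41.3 ± 8.16 against 37.5 ± 8.86. Cars, the cysteinyl enzyme, had the second largest log2 difference of the set, 0.63, and the widest interval, -0.18 to 1.43. Its levels were 5.88, 14.9 and 17.4 normalized CPM in mutant and 7.46, 8.07 and 6.14 in control libraries, so 1 mutant library lay below all 3 controls. Without that library, mutant replicate 1, the Cars difference was 1.07 (limma, adjusted p = 0.107), and without mutant replicates 2 and 3 in turn it was 0.46 and 0.35 (limma, 0.754 and 0.743).

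The multi-synthetase complex holds 8 of the cytosolic enzymes: Dars, Eprs, Iars, Kars, Lars, Mars, Qars and Rars. None of the 8 passed the test (limma), none by edgeR, and 3 had an unadjusted p of at most 0.05. Of all tested genes 2.27%, 2.45% and 7.13% were higher by these limits. With DESeq2 1 of the 8 passed and with the block 4, where 3.26% and 9.15% of genes were higher. Their median log2 difference was 0.28, and 0.36 over the 12 free enzymes. Their values lay closer together than those of the free enzymes, from 0.22 in Rars to 0.53 in Lars against 0.05 in Farsb to 0.79 in Aars. All 8 were higher in mutant cells in each of the 3 same-numbered pairs, as were 7 of the 12 free enzymes and 21.8% of all tested genes.

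Lars, the leucyl enzyme, was at 99.8, 160 and 155 normalized CPM in mutant and 84.8, 110 and 87.1 in control libraries. The groups overlapped through mutant library 1. Lars had a log2 difference of 0.53 (limma, adjusted p = 0.211), and it passed with the block (limma, 0.0185) and with DESeq2 (0.112). Kars was at 151, 216 and 189 against 118, 145 and 148 normalized CPM, with no overlap, and its log2 difference of 0.43 (limma, adjusted p = 0.225) passed with the block (limma, 0.0203). An annotated Kars pseudogene could share reads with it.

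Dars, the aspartyl enzyme, ran in the other order, with library 1 highest in both genotypes: 162, 127 and 123 normalized CPM in mutant and 129, 98.2 and 89.4 in control libraries. It passed with the block (limma, adjusted p = 0.0381), and so did Eprs (limma, 0.0870), the enzyme that charges both glutamate and proline tRNA. Eprs was the most abundant member by mean normalized CPM, at 186, 330 and 331 against 159, 268 and 273. Its groups overlapped while each mutant library lay above its same-numbered control. In the libraries numbered 1 Iars was higher than Eprs, at 212 in mutant and 164 in control. Qars and Rars, the glutaminyl and arginyl enzymes, had small differences without overlap, from 73.0 ± 4.31 to 89.7 ± 7.53 and from 125.7 ± 3.61 to 146.7 ± 10.5 normalized CPM. Iars was at 223.9 ± 11.4 against 191.0 ± 24.8, and Mars, the methionyl enzyme, at 89.5 ± 6.65 against 75.5 ± 10.5, both with overlapping groups.

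**Figure D2:**
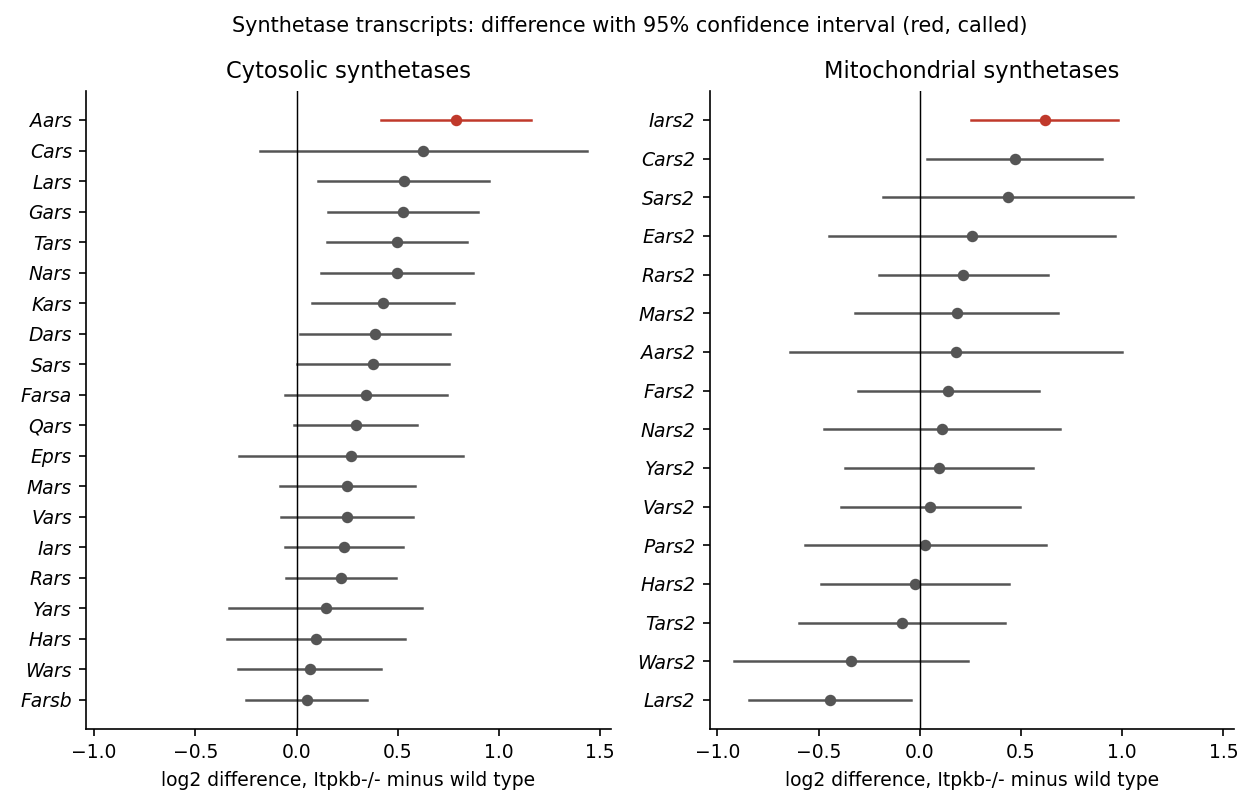
Log2 difference (x axis, Itpkb-/- minus wild type, log2(normalized CPM + 1)) of each of the 20 cytosolic and 16 mitochondrial synthetase genes, ordered by size, with its 95% confidence interval from limma. Aars and Iars2, in red, passed at an adjusted p of at most 0.15, and all cytosolic points lie right of 0 while 4 mitochondrial points lie left of it.

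The 10 cytosolic genes that passed with the replicate block, all higher, were Aars, Dars, Eprs, Farsa, Gars, Kars, Lars, Nars, Sars and Tars. The 1 mitochondrial gene was Iars2. The cytosolic count of 1 in the fit without the block was 8 without mutant replicate 1 (3.17% of genes higher) and 0 without control replicate 3 (0.308% of genes higher). Across the 20 genes 7 had all mutant libraries above all control libraries, beside 10% of all tested genes, and 15 were higher in all 3 same-numbered pairs, beside 21.8%.

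Most cytosolic members ordered the libraries alike. Within a genotype, library 1 was the lowest for 17 of 20 genes in mutant and for 15 of 20 in control cells. Of all 12008 tested genes, 4441 and 4716 were lowest in these 2 libraries. Summed over the 20 genes, the level was 2076, 2705 and 2545 normalized CPM in mutant libraries 1, 2 and 3 and 1756, 2071 and 1971 in control libraries. The lowest mutant sum thus lay just above the highest control sum. By mean log2 level the groups overlapped, with mutant library 1 at 6.443 and control library 2 at 6.445. As a share of all signal mutant library 1, at 0.200%, lay below control libraries 2 and 3, at 0.210% and 0.202%. Mutant library 2, the one with the most granulocyte marker RNA, had the highest mutant level for 13 of the 20 genes, beside 4034 of all 12008 tested genes. Without mutant replicate 2 the cytosolic median log2 difference was 0.23 and Aars was the 1 gene called (0.958% of genes higher). In the pair numbered 3 all 20 cytosolic genes were higher in mutant cells, with a median log2 difference of 0.35. In the pairs numbered 1 and 2 it was 16 and 19 of 20, with medians of 0.24 and 0.37. Granulocyte markers summed to 1243 and 1145 normalized CPM in mutant and control library 3, and LT-HSC markers to 2391 and 3485. Mutant library 1, the lowest mutant library for 17 of 20 genes, had the second highest granulocyte sum of the 6 libraries, 7336. The part of granulocyte RNA or of other cells in these differences was not tested.

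**Figure D3:**
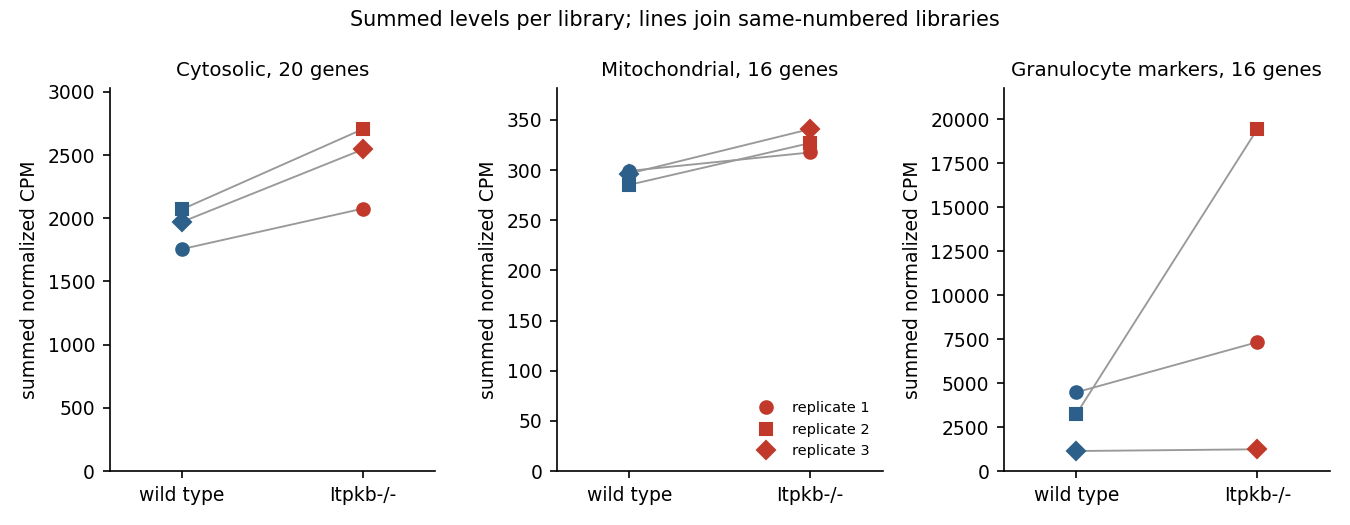
Summed normalized CPM (y axes, from 0) of the 20 cytosolic genes, the 16 mitochondrial genes and 16 granulocyte markers in each library, with lines joining same-numbered wild-type (blue) and Itpkb-/- (red) libraries. Both synthetase sums go up along all 3 lines, while the granulocyte sum is near level in the pair numbered 3 and reaches 19449 in Itpkb-/- library 2.

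Iars2, the mitochondrial isoleucyl-tRNA synthetase (chromosome 1, 185284726 to 185329396, minus strand), was the mitochondrial gene that rose. It was at 66.4, 62.9 and 65.4 normalized CPM in mutant libraries and 50.7, 38.9 and 37.4 in control libraries. The mutant libraries were tightly grouped and lay above every control. Mean levels of 64.9 ± 1.798 and 42.3 ± 7.31 (SD, n = 3 each) gave a log2 difference of 0.62 (SE 0.16, 95% confidence interval 0.26 to 0.98, limma adjusted p = 0.102). The call was lost in 4 of the 6 fits without 1 library: without mutant replicates 2 and 3 (limma, adjusted p = 0.198 and 0.166) and without control replicates 2 and 3 (0.240 and 0.354). Its exons overlap those of Rab3gap2, on the opposite strand, by 2034 bases, and the library kit does not mark strand, so reads of the overlap cannot be told apart. Rab3gap2 was at 67.3, 98.7 and 103.3 normalized CPM in mutant and 93.5, 97.1 and 89.7 in control libraries, a log2 difference of -0.08.

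Lars2, the mitochondrial leucyl enzyme, had the largest negative difference of all 36 members. It was at 21.1, 19.9 and 22.5 normalized CPM in mutant and 29.1, 29.3 and 29.0 in control libraries, so every mutant library lay below every control, as did those of 11.3% of all tested genes. The log2 difference was -0.44 (SE 0.18, 95% confidence interval -0.84 to -0.04) and did not pass (limma, adjusted p = 0.272, range over the alternatives 0.169 to 0.672). Its cytosolic counterpart Lars had a positive difference, 0.53. Cars2, the mitochondrial cysteinyl enzyme, was at 24.6, 26.1 and 28.0 normalized CPM against 17.7, 17.3 and 21.2, with no overlap. Its log2 difference was 0.47 (SE 0.20) and it did not pass either (limma, adjusted p = 0.283).

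The other 13 mitochondrial genes had log2 differences from -0.34 in Wars2 to 0.44 in Sars2, and their adjusted p-values ran upward from 0.503. Sars2, the mitochondrial seryl enzyme, was at 10.4 ± 2.60 against 7.25 ± 0.703 normalized CPM, and Wars2, the tryptophanyl one, at 10.3 ± 2.63 against 13.2 ± 1.87. Rars2, for arginine, was at 24.4, 26.7 and 30.3 against 23.6, 21.5 and 24.4 normalized CPM, with the lowest mutant library level with the highest control at this rounding. Tars2 and Hars2, for threonine and histidine, had small negative differences, -0.09 and -0.02. The last of these overlaps its cytosolic neighbour Hars by 195 exon bases on the opposite strand. Aars2, Ears2, Fars2, Mars2, Nars2, Pars2, Vars2 and Yars2 had positive differences between 0.03 (Pars2) and 0.26 (Ears2), all with overlapping groups. The mitochondrial sum was 318, 327 and 341 normalized CPM in mutant libraries 1, 2 and 3 and 299, 285 and 297 in control libraries, without overlap. Iars2 alone gave 66.4, 62.9 and 65.4 of this in mutant and 50.7, 38.9 and 37.4 in control libraries. By mean log2 level of the mitochondrial genes the groups overlapped, with mutant library 1 at 4.114 and control library 3 at 4.119.

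Side by side, the mean log2 level of the cytosolic genes exceeded that of the mitochondrial genes by 2.33, 2.62 and 2.50 in mutant libraries 1, 2 and 3 and by 2.19, 2.35 and 2.24 in control libraries. The genotypes overlapped in this gap, since mutant library 1 lay below control library 2, and the gap was larger in mutant cells in each same-numbered pair. Among 17 pairings of a cytosolic with a mitochondrial gene for the same amino acid, the cytosolic log2 difference was the larger in 14. The exceptions were Farsb with Fars2, Iars with Iars2 and Sars with Sars2. The widest gap was between Lars and Lars2 (0.97), then Aars and Aars2 (0.61) and Tars and Tars2 (0.58), while Rars and Rars2 differed by 0.004 and Eprs and Ears2 by 0.01. The pairings share libraries, and Fars2 and Eprs each enter more than 1 of them, so no test was made of this difference.

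Levels of different genes were compared per kb of annotated exon. In control cells the cytosolic genes had a median of 30.1 normalized CPM per kb, from 2.24 in Cars to 61.0 in Kars, followed by Rars at 59.6. The mitochondrial genes had a median of 4.74 per kb, from 1.39 in Mars2, whose single annotated exon is 11.3 kb long, to 12.4 in Rars2. The cytosolic member was the more abundant per kb in 16 of the 17 pairings, by a median of 5.17-fold. Cars and Cars2 were the exception, at 2.24 and 9.85 normalized CPM per kb. Exon lengths join all transcripts of a gene in the annotation, so a long rare transcript lowers the value per kb, as the 5.75 kb counted for Aars may do.

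**Figure D4:**
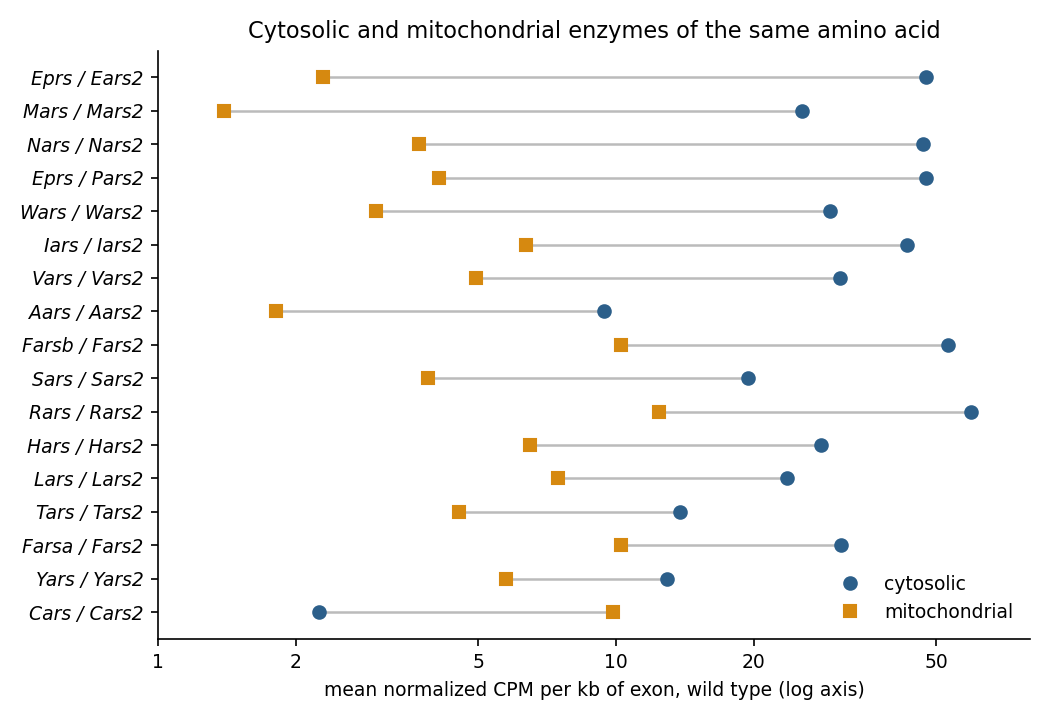
Mean wild-type level in normalized CPM per kb of exon (x axis, logarithmic) of cytosolic (blue circles) and mitochondrial (orange squares) synthetase genes for the same amino acid, ordered by their ratio. The cytosolic gene is to the right in 16 of 17 pairings, and only Cars, at 2.24 per kb, lies left of its counterpart Cars2.

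Genes of the Atf4 and amino acid response, the pathway described above, outside the synthetases had both called increases and negative differences. Of 28 listed genes 23 were tested, and 9 rose, 0 fell and 14 missed the limit, where 2.27% of all tested genes rose and 3.24% fell. The median over the 23 was 0.11. The count of 9 came to 5 without mutant replicate 2, 4 without control replicate 2 and 3 without control replicate 3, where 0.958%, 1.02% and 0.308% of all tested genes were higher. The group of 9 holds the amino acid transporters Slc7a5 (log2 difference 0.76), Slc1a4 (1.09), Slc1a5 (0.62) and Slc7a1 (0.53), and Asns (0.94), which makes asparagine, the amino acid that Nars charges. It also holds Psat1 (0.49) of serine synthesis, Shmt2 (0.48) and Mthfd2 (1.08) of mitochondrial one-carbon metabolism, and the lipoprotein receptor gene Vldlr (1.83). Asns was at 65.1, 76.5 and 74.0 normalized CPM in mutant and 35.3, 33.5 and 42.8 in control libraries. Atf4 itself was at 47.7, 124 and 132 against 59.2, 117 and 96.2, with overlapping groups and library 1 lowest in both genotypes, and its log2 difference was 0.08 (limma, adjusted p = 0.946).

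Of the 23 tested genes 7 had negative differences, and 2 of these, named after their values were seen, passed with the block. By that fit 8.97% of all tested genes were lower, so the 2 of 23 stand near the share over all genes. Trib3, a pseudokinase that feeds back on Atf4, and Sesn2, an inhibitor of mTORC1 signalling, had log2 differences of -0.99 and -0.77 (limma, adjusted p = 0.311 and 0.230) and were lower with the block (limma, 0.107 and 0.109). Trib3 had overlapping groups and as few as 5 reads in a library. For Sesn2 every mutant library lay below every control, as in 11.3% of all tested genes. The 12 synthetases known from the amino acid response had log2 differences from 0.06 in Wars to 0.79 in Aars, with a median of 0.44. Of these 1 was called and 11 were not, where 2.27% of all tested genes rose. The other 8 cytosolic enzymes were Dars, Farsa, Farsb, Hars, Kars, Qars, Rars and Vars, with log2 differences from 0.05 to 0.43 and 0 called.

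Partners of the cytosolic enzymes had a median log2 difference of 0.11. None of the 9 passed (limma), none by edgeR, and 1 had an unadjusted p of at most 0.05, beside 7.13% of all tested genes higher at that limit. The 1 gene was Xpot, the exporter of tRNA from the nucleus. It was at 169, 163 and 136 normalized CPM in mutant and 108, 126 and 122 in control libraries. Its log2 difference was 0.39 (limma adjusted p = 0.200, and 0.0504 with the block). The scaffold genes Aimp1, Eef1e1 and Aimp2 had log2 differences of 0.27, 0.28 and -0.08, and the elongation factor genes Eef1a1 and Eef2 of -0.08 and 0.02.

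The mitochondrial partners were likewise mixed. None of 16 tested mitochondrial translation factors passed (limma), and none by edgeR. An unadjusted p of at most 0.05 was found for 1, beside 7.13% of all tested genes higher at that limit. It was the initiation factor gene Mtif2 (log2 difference 0.52, limma adjusted p = 0.259, and 0.126 with the block). The median of the 16 was 0.04, with 10 positive and 6 negative. Gatc, a subunit of the enzyme that completes mitochondrial glutaminyl-tRNA, had a log2 difference of -0.34, and the elongation factor gene Gfm1 one of 0.27. Of 15 tested genes of tRNA end maturation and splicing 1 rose, Clp1, an RNA kinase that also acts in mRNA 3′ end formation, by 0.70 (limma, adjusted p = 0.113), a call lost in 5 of the 6 fits without 1 library. The tRNA splicing endonuclease subunits Tsen15 and Tsen34 had differences of -0.45 and -0.40 that did not pass (limma, 0.269 and 0.465). The median of that list was 0.06, with 8 positive and 7 negative. With the block 1 of the 15 was higher and 1 lower, beside 9.15% and 8.97% of all tested genes, and the 1 call without the block stands beside 2.27%.

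**Figure D5:**
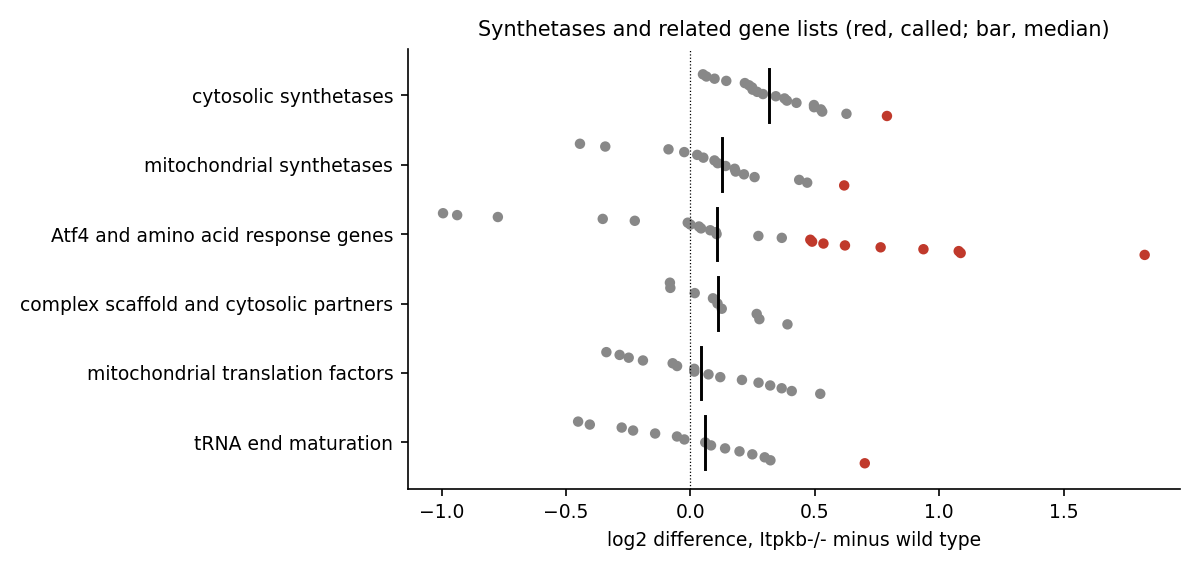
Log2 difference (x axis, Itpkb-/- minus wild type) of every tested gene of 6 lists, with called genes in red and the median of each list as a black bar. The cytosolic synthetases lie between 0.05 and 0.79 with a median of 0.32, and the Atf4 and amino acid response genes spread from -0.99 to 1.83 with 9 called.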

How the data were processed

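The deposited table gives a signal, gene counts that the authors divided by 1 factor per library, called normalized CPM here. Per the submitters' processing notes, reads passed CASAVA 1.8.2, cutadapt and TopHat2 2.0.8b against mm10, then Partek and edgeR. Amplification used a NuGEN kit that does not keep strand, from 1 to 5 ng, per the labels' protocols. Every value was a whole multiple of 1 read within 0.01 read, so reads were recovered (1 read was worth 0.131 to 0.249 normalized CPM). Reads carry no molecular identifiers. Replicates are separate pools.

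The 12008 genes that reached 1 normalized CPM in 3 or more libraries were tested with limma 3.58.1 (R 4.3.3, trend) on log2(value + 1), Benjamini-Hochberg adjusted over all genes and called at 0.15, the limit in the series design text. Other analyses included edgeR 4.0.16 and DESeq2 1.42.0 on recovered reads. The test was tried on simulated data. Deviations of same-numbered libraries from their genotype means correlated at 0.268 to 0.296 across genes, so the numbers were taken as pairs for the block, although no label says what they mean. No 2 libraries of a genotype agreed within sampling noise. Members and lists were chosen with earlier results of these data known. Named in full are called members, the 3 smallest p-values of each compartment and of each related list, and further members chosen after their values were seen. Exon lengths and positions are from GENCODE M21 (mm10).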

Additional observations from a re-analysis of the deposited data

How the results depend on the processing

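Every median over the 20 cytosolic genes stayed positive, from 0.23 without mutant replicate 2 to 0.38 without mutant replicate 1, and over the 16 mitochondrial genes from 0.09 to 0.15. The count of called cytosolic genes, 1, was 10 with the replicate block, 5 with DESeq2, 2 with edgeR and 2 with median-of-ratios scaling, 0 to 8 without 1 library and 0 without both libraries numbered 2. The count of called mitochondrial genes, 1, was 0 to 1 without 1 library, 0 without both libraries numbered 2 and 0 at the stricter adjusted limit of 0.05. The count over all genes, 661, was 2176 with the replicate block, 182 at that stricter limit, 387 under the limits of the series design text, 139 without both libraries numbered 2 and 74 to 837 without 1 library. It was lowest without control replicate 3, and 266, 299 and 297 without mutant replicate 2 and control replicates 1 and 2. The count of 9 in the Atf4 list was 5 without a filter, 3 at the 0.05 limit and 6 under the series limits. It was 2 without both libraries numbered 2 and between 3 and 8 without 1 library. Over all genes the count of higher genes, 272, was 174, 74, 185, 64 and 37 to 381 in the same settings. The median of the tRNA end maturation list turned to -0.07 without mutant replicate 2. The cause of these changes was not tested. Depth limits Ears2 and Aars2 most, with as few as 13 reads in a library.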
